A study of Mus musculus with 18 samples.

Results

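Collagens are the triple-helical proteins of the extracellular matrix, and fibroblasts are their main source in connective tissue. Each triple helix is built from 3 alpha chains, which are hydroxylated and glycosylated in the endoplasmic reticulum, folded with dedicated chaperones, exported in large carriers, trimmed outside the cell and then joined by lysyl oxidases. Fibrillar chains form the rope-like fibrils of skin, bone and cartilage, and basement membrane (type IV) chains form sheets under epithelia and around vessels. FACIT chains (fibril-associated collagens with interrupted triple helices) decorate fibrils. The remaining types include chains of beaded filaments, anchoring fibrils, hexagonal lattices and transmembrane proteins.

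The 44 mouse genes whose symbol has the form Col, a number, a and a number were taken from the 51912 genes of a table of estimated read counts. Of these, 11 were fibrillar, 6 basement membrane, 9 FACIT and 18 other collagen genes. RNA came from primary mouse embryonic fibroblasts (MEFs) of mid-gestation C57BL/6 embryos without head, heart and liver, at passage 1, grown at 5% oxygen with 15% serum, with 3 libraries of each of 6 genotypes: *Pole4*+/+ MEFs and *Pole4*-/- MEFs, each with both copies of *Trp53* (*Trp53*+/+), 1 copy (*Trp53*+/-) or none (*Trp53*-/-). *Pole4* encodes an accessory subunit of the replicative DNA polymerase epsilon, and *Trp53* encodes the stress-responsive transcription factor p53. Both genes were deleted throughout the embryo, and MEFs from a whole trunk are a mixture of connective tissue cells, so that fewer cells of a type and less RNA per cell cannot be told apart in these libraries. The comparisons ask how loss of 1 or both *Trp53* copies changed gene expression with and without *Pole4*, and what loss of *Pole4* changed at each *Trp53* dose. Nothing in the labels says that the 3 libraries of a genotype came from separate embryos, and p-values then measure only the spread between these libraries.

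Libraries held 9535971 to 35319918 counts, of which ribosomal RNA genes took 0.968% to 42.5%, with 24.7% to 30.0% in *Pole4*-/- *Trp53*-/- and 7.11% to 42.5% in *Pole4*-/- *Trp53*+/+ MEFs. *Trp53* was at 8.65 to 12.1 CPM (counts scaled to a common library size by the trimmed mean of M-values, TMM) in *Trp53*-/- libraries, at 48.4 to 59.6 in *Trp53*+/- and at 64.2 to 96.1 in *Trp53*+/+ libraries. *Pole4* was at 9.26 to 11.99 CPM in *Pole4*-/- libraries and at 14.2 to 26.4 in *Pole4*+/+ libraries. Fibroblast markers summed to 5233 to 7569 CPM, against 3.92 to 8.88 for endothelial, 4.53 to 53.7 for macrophage, 7.28 to 42.2 for epithelial and 33.2 to 71.4 for chondrocyte markers. Smooth muscle markers were near the fibroblast sums, at 2416 to 6182 CPM, and osteoblast markers summed to 229 to 1100 CPM. Skeletal muscle markers summed to 21.8 to 82.6 and Schwann and neural markers to 41.9 to 75.6 CPM. By Y-linked genes and *Xist*, 7 libraries were male. Each *Pole4*-/- genotype held libraries of both sexes, so that its 3 libraries did not all come from 1 embryo. All *Pole4*+/+ *Trp53*+/- libraries were male and all *Pole4*+/+ *Trp53*+/+ and *Pole4*+/+ *Trp53*-/- libraries female, so that sex and genotype cannot be told apart between these. Replicate 1 of *Pole4*+/+ *Trp53*-/- stood apart: its Y-linked genes summed to 9.08 CPM, against at most 0.337 in the other 10 libraries counted as female and 134 to 208 in the male libraries, and its smooth muscle markers to 2416 CPM, below all other libraries. Whether it held some male cells or RNA was not tested. Where loss of both *Trp53* copies in *Pole4*+/+ MEFs is given for a named collagen gene, its log2 fold change without this library is given in the same paragraph.

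Most collagen RNA in these cells was fibrillar. Per kilobase of principal transcript, the mean level over 18 libraries was highest for *Col1a1* (1165 CPM per kb) and *Col1a2* (761), the chains of type I collagen, followed by *Col3a1* (209), *Col5a2* (195) and *Col5a1* (175). Fibrillar chains made up 73.4% to 82.0% of the summed collagen level per kb in every library. *Col4a1* (137) and *Col4a2* (95.6), the broadly made chains of basement membrane, and the FACIT gene *Col12a1* (114) came next, while the type VI chains *Col6a1*, *Col6a2* and *Col6a3* lay at 90.6, 64.0 and 52.5 CPM per kb. *Col2a1*, the cartilage fibril chain, was at 59.6 CPM per kb. Of 10 chondrocyte markers 6 passed the filter, and *Snorc* was at 0 counts in all libraries. At the low end, 5 genes did not pass the filter on low counts and were not tested: *Col6a5*, *Col13a1*, *Col17a1*, *Col20a1* and *Col22a1*, with at most 20 counts in any library. The other 39 were tested among 15710 genes.

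Promoter windows from RefSeq on GRCm38.p6, which run from 250 bases before to 50 after a start site, were at hand for 35 of the 44 genes. *Col4a1* (chr8:11312777-11313076, minus strand) and *Col4a2* (chr8:11312555-11312854, plus strand) are read away from each other, and the 5′ ends of the 2 genes overlap by 22 bases in the annotation. They are shown because these chains fold together and their start sites lie in shared DNA. Capitals mark the 78 bases that both windows hold.
Col4a1: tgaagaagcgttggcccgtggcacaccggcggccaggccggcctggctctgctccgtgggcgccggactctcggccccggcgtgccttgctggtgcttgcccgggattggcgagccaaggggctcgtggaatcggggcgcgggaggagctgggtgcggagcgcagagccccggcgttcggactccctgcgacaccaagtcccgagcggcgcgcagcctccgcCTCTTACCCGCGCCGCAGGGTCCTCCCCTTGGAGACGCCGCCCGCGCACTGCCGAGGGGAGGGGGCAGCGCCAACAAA
Col4a2: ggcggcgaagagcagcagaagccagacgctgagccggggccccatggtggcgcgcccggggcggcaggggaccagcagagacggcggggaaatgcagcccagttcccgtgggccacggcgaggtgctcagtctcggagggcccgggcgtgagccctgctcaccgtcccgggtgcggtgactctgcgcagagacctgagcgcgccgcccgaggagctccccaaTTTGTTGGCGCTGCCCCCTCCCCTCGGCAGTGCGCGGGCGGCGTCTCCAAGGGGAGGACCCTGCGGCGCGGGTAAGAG

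The promoters of *Col10a1* (chr10:34389731-34390030, plus strand) and *Col1a2* (chr6:4505368-4505667, plus strand) are shown because *Col10a1* had the smallest p of the collagen genes in the comparisons below and *Col1a2* was one of the most abundant. Capitals mark TATAAA and CCAAT on either strand. In *Col10a1*, TATAAA began 32 bases before the start site.
Col10a1: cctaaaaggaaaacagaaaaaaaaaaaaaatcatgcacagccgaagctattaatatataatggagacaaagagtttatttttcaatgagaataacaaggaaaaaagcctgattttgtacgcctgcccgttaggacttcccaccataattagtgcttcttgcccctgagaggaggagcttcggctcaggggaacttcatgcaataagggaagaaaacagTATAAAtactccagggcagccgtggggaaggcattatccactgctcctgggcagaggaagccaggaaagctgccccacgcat
Col1a2: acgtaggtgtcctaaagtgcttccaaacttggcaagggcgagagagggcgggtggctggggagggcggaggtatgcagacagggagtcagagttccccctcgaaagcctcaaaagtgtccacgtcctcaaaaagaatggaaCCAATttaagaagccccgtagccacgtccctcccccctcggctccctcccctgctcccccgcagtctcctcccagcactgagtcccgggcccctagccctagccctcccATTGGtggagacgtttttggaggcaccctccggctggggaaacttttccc

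Over the 35 collagen promoters, with both strands searched, TATAAA occurred in 14.3% (14.1% of all 27025 promoters of that length), CCAAT in 34.3% (37.8%) and GGGCGG in 62.9% (35.6%). Among the 10689 promoters of tested genes the shares were 7.12%, 38.6% and 64.1%. A 10-base TRP53 half-site occurred in 11.4% of collagen promoters, those of *Col6a6*, *Col9a2*, *Col17a1* and *Col20a1*, against 8.34% of all and 6.73% of the promoters of tested genes. Of these 4, *Col17a1* and *Col20a1* did not pass the filter on low counts. These are matches of letters in a window and describe no binding.

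Loss of both *Trp53* copies in *Pole4*-/- MEFs lowered genes of all 4 collagen classes. Of the 39 tested, 23 fell and 0 rose at an adjusted p under 0.05, against 20.8% of all tested genes that fell and 21.8% that rose (edgeR's quasi-likelihood test, Benjamini-Hochberg adjusted over 15710 genes). With no adjustment, a p under 0.05 was reached by 26 lower and 1 higher (24.9% and 25.1% of all genes), and DESeq2 called 23 lower and 1 higher (21.1% and 22.3% of all genes). The median log2 fold change of the collagen genes was -1.01, beside -0.02 over all genes. The 3 libraries of each genotype did not overlap for 27 lower and 3 higher collagen genes, where 28.5% of all genes were lower and 28.5% higher in that sense. In *Pole4*+/+ MEFs, the same loss lowered 2 collagen genes and raised 0 (2.37% of all genes fell and 2.23% rose), and without adjustment 8 were lower and 10 higher at that threshold (8.26% and 10.7% of all genes). DESeq2 called 5 lower and 2 higher there (3.96% and 4.35% of all genes), and the collagen median was 0.37 beside 0.03 over all genes by edgeR. By voom with quality weights that median had the opposite sign, at -0.22 beside 0.01. There, 7 lower and 4 higher collagen genes did not overlap, against 8.31% and 8.24% of all genes. Without replicate 1 of *Pole4*+/+ *Trp53*-/-, 4 fell in *Pole4*+/+ MEFs (*Col8a1*, *Col10a1*, *Col14a1* and *Col18a1*), where 8.34% of all genes fell and 8.58% rose, and the collagen median was -0.04. Without replicate 2 of that genotype *Col9a1* and *Col9a2* were called higher beside the 2 lower, with 1.68% of all genes lower and 1.29% higher. Without replicate 3, *Col25a1* was called higher beside *Col10a1* and *Col18a1*, with 2.24% of all genes lower and 1.78% higher. These 3 higher genes were on few counts outside replicate 1: *Col9a1* was at 2.57, 0.621 and 1.21 CPM, *Col9a2* at 3.01, 0.0388 and 1.05 CPM and *Col25a1* at 6.03, 0.931 and 0.404 CPM in *Pole4*+/+ *Trp53*-/- libraries, each highest in replicate 1. Their log2 fold changes over all libraries were 2.01 ± 0.58, 2.07 ± 0.83 and 2.13 ± 0.74, none past the threshold, and 1.24, 0.48 and 0.25 without replicate 1.

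**Figure D1:**
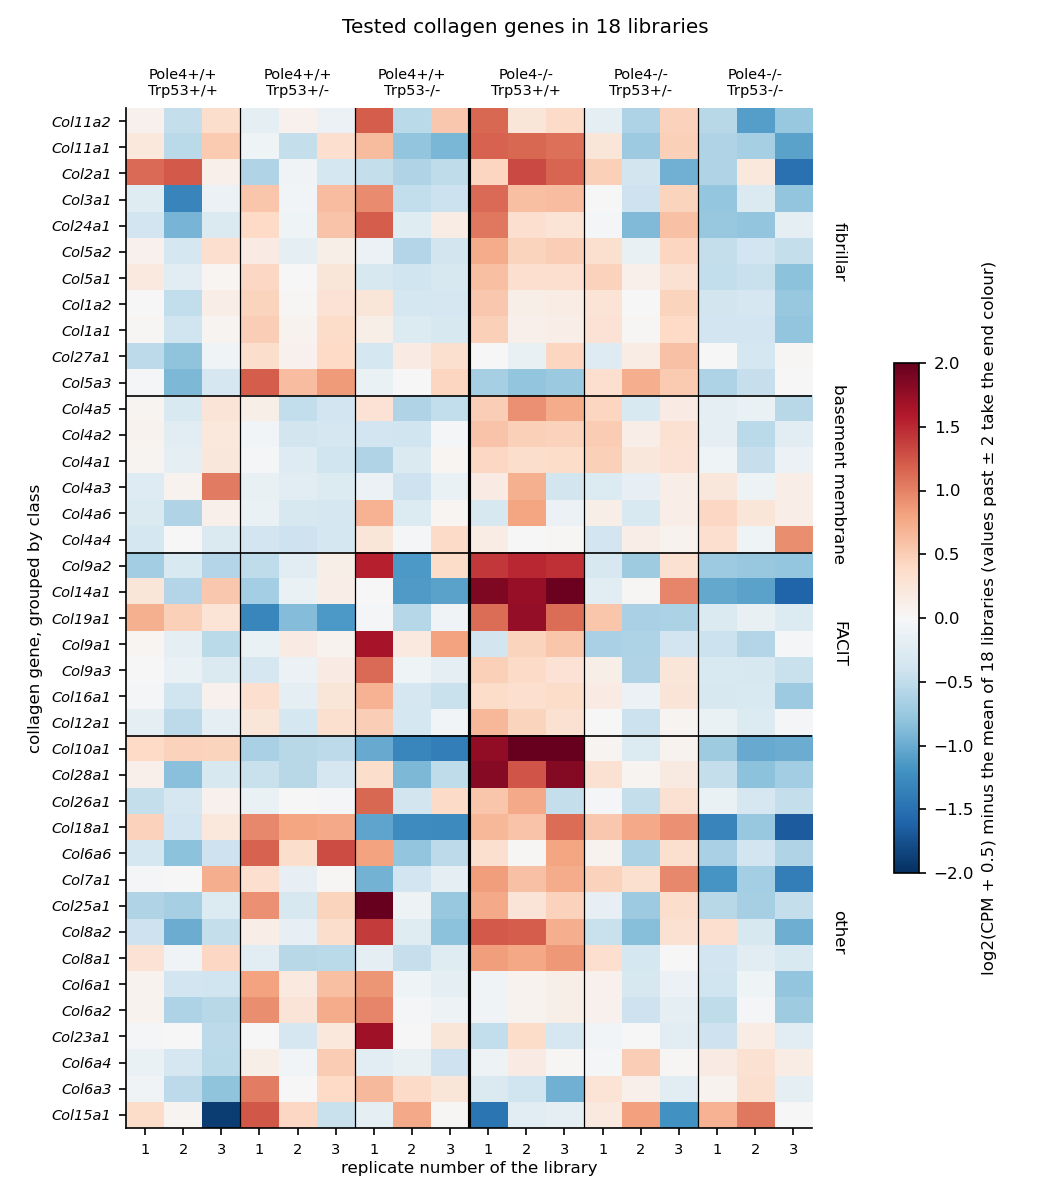
Rows are the 39 tested collagen genes by class and columns the 18 libraries by genotype. Colour gives log2(CPM + 0.5) minus the mean of the 18 libraries for that gene. The 3 *Pole4*-/- *Trp53*+/+ libraries are red for most genes and the 3 *Pole4*-/- *Trp53*-/- libraries blue, while replicate 1 of *Pole4*+/+ *Trp53*-/- differs from the other 2 of its genotype.

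**Figure D2:**
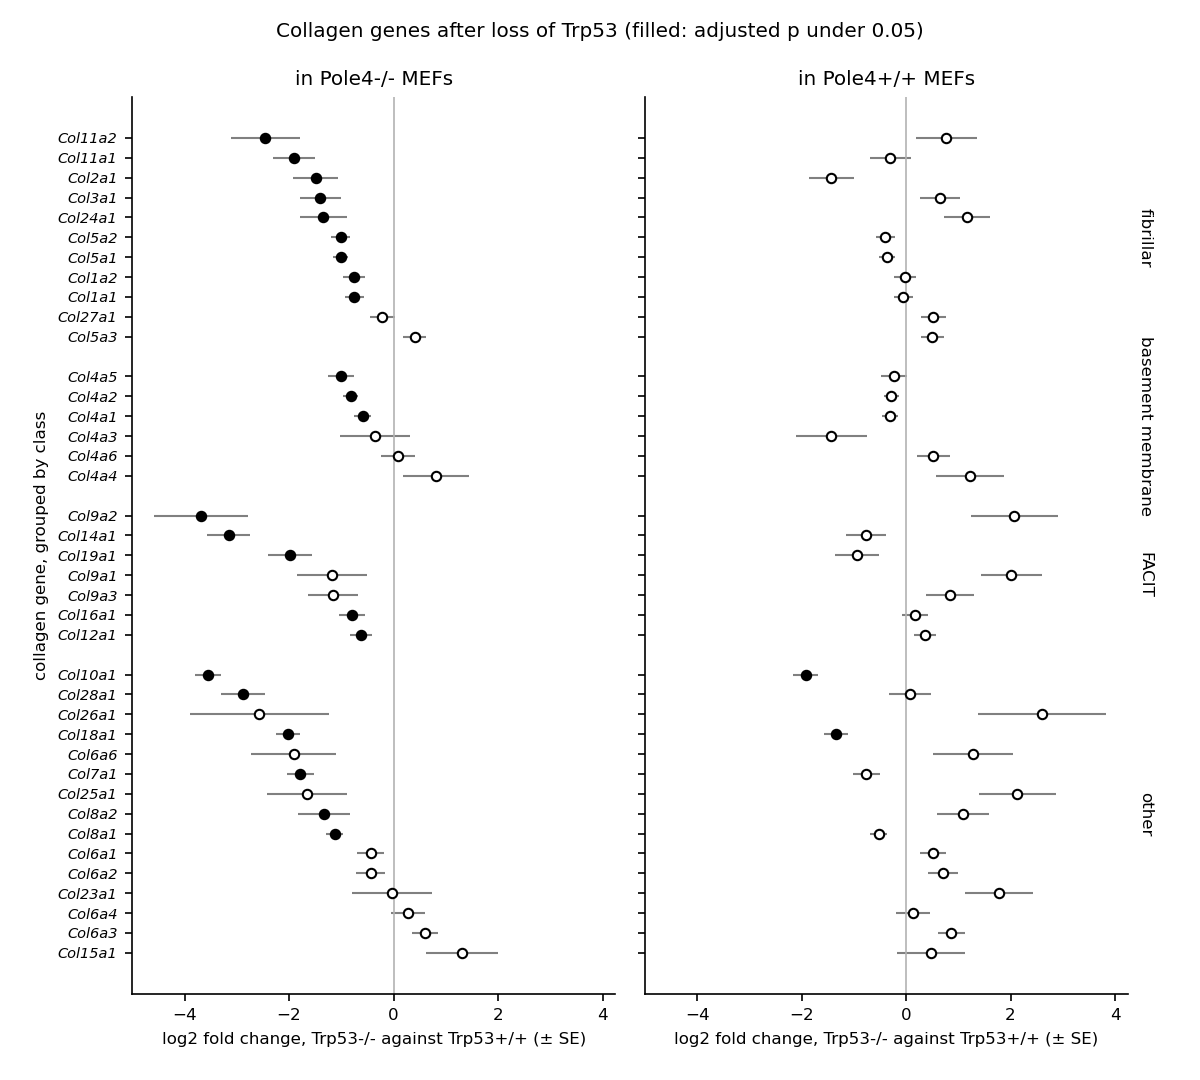
Points are log2 fold changes of *Trp53*-/- against *Trp53*+/+ MEFs with their SE for each tested collagen gene, in *Pole4*-/- (left) and *Pole4*+/+ MEFs (right). Filled points have an adjusted p under 0.05: 23 on the left, all below 0, and 2 on the right, *Col10a1* and *Col18a1*.

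Among fibrillar genes in *Pole4*-/- MEFs, 9 of 11 fell with loss of *Trp53* and 0 rose (20.8% and 21.8% of all genes), with a median log2 fold change of -1.01. *Col1a1*, the most abundant, was at 9341, 7193 and 7365 CPM in *Pole4*-/- *Trp53*+/+ and at 5140.4, 5163 and 3892 CPM in *Pole4*-/- *Trp53*-/- libraries. The groups did not overlap, with a fall of -0.75 ± 0.18 in log2 fold change (SE; adjusted p = 0.00411 by edgeR). *Col1a2*, its partner, moved by -0.75 ± 0.21 (adjusted p = 0.00877). In *Pole4*+/+ MEFs, *Col1a1* was at 6853, 5089 and 7010.0 CPM with *Trp53* and at 7272, 5544 and 5409.8 CPM without it. These groups overlapped, with a log2 fold change of -0.06 ± 0.18 (adjusted p = 0.918). Without replicate 1 of *Pole4*+/+ *Trp53*-/-, *Col1a1* was at -0.24 and *Col1a2* at -0.28 there.

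The type III chain and 2 of the 3 type V chains, which join type I collagen in fibrils, fell too. *Col3a1* was at 2298, 1596 and 1607 CPM in *Pole4*-/- *Trp53*+/+ and at 617, 859 and 610.2 CPM in *Pole4*-/- *Trp53*-/- libraries, a log2 fold change of -1.40 ± 0.39 (adjusted p = 0.00985 by edgeR). In *Pole4*+/+ MEFs it was at 892, 419.7 and 968 CPM with *Trp53* and at 2033, 746 and 783 CPM without it. The high value was replicate 1, the library that stood apart, and the log2 fold change was 0.64 ± 0.38 with it and -0.02 without it (adjusted p = 0.407 with it). *Col5a1*, which sets fibril diameter, was at 2157, 1791 and 1792 CPM against 1010.4, 1038 and 802 CPM in *Pole4*-/- MEFs with and without *Trp53*, a log2 fold change of -1.01 ± 0.15 (adjusted p = 9.65e-05). In *Pole4*+/+ MEFs it was at 1625, 1220.3 and 1452 CPM with and at 1136, 1071 and 1133 CPM without *Trp53*; these did not overlap, but the log2 fold change of -0.36 ± 0.15 did not pass (adjusted p = 0.175). *Col5a2* moved by -1.01 ± 0.18 in *Pole4*-/- (adjusted p = 0.000513) and by -0.39 ± 0.18 in *Pole4*+/+ MEFs (adjusted p = 0.249). Leaving out replicate 1 of *Pole4*+/+ *Trp53*-/- gave -0.41 for *Col5a1* and -0.55 for *Col5a2* in *Pole4*+/+ MEFs.

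The cartilage-type fibrillar chains also fell in *Pole4*-/- MEFs. *Col11a1* was at 804, 792 and 762 CPM with *Trp53* and at 235, 224 and 169 CPM without it, a log2 fold change of -1.91 ± 0.41 (adjusted p = 0.00191 by edgeR). *Col2a1* was at 349, 655 and 584 CPM with *Trp53* and at 172, 302 and 92.2 CPM without it (log2 fold change -1.49 ± 0.43, adjusted p = 0.0128). With *Pole4* present it was at 571, 607 and 279 CPM with and at 186, 171 and 183 CPM without *Trp53*. These did not overlap, and the change of -1.43 ± 0.43 did not pass (adjusted p = 0.0727; -1.49 without replicate 1 of *Pole4*+/+ *Trp53*-/-). *Col11a2* and *Col24a1*, at most 2.76 and 9.46 CPM in any library, moved by -2.46 ± 0.66 and -1.34 ± 0.45 in *Pole4*-/- MEFs (adjusted p = 0.00725 and 0.0260). *Col27a1* and *Col5a3* did not pass, at -0.22 ± 0.24 and 0.40 ± 0.23. The calls of *Col2a1* and *Col1a2* were lost without replicate 3 of *Pole4*-/- *Trp53*-/-, and those of *Col1a2*, *Col11a2* and *Col24a1* without replicate 1 of *Pole4*-/- *Trp53*+/+; that of *Col24a1* was also lost without replicate 1 or 2 of *Pole4*-/- *Trp53*-/-. With library totals in place of TMM, *Col1a2*, *Col3a1* and *Col24a1* lost theirs (adjusted p = 0.0545 for *Col3a1* by edgeR). The call of *Col24a1* was lost with no filter on low counts, and that of *Col2a1* with only the libraries compared.

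Of the 6 basement membrane genes, 3 fell in *Pole4*-/- MEFs (median log2 fold change -0.47), where 20.8% of all genes fell. In *Pole4*+/+ MEFs edgeR called 0, where 2.37% of all genes fell and 2.23% rose, and 0 had an unadjusted p under 0.05, which 8.26% of all genes reached as lower and 10.7% as higher. *Col4a2* was at 893, 834 and 821 CPM in *Pole4*-/- *Trp53*+/+ and at 522, 411 and 514 CPM in *Pole4*-/- *Trp53*-/- libraries, without overlap (-0.82 ± 0.14, adjusted p = 0.000437 by edgeR). *Col4a1*, read from the other strand of the shared promoter above, was at 1185, 1127 and 1148 CPM against 838, 643 and 814 CPM (-0.59 ± 0.16, adjusted p = 0.00680). In *Pole4*+/+ MEFs, *Col4a2* and *Col4a1* were at -0.28 ± 0.14 and -0.30 ± 0.16 and did not pass (adjusted p = 0.303 and 0.315), and were at -0.26 and -0.19 without replicate 1 of *Pole4*+/+ *Trp53*-/-. *Col4a5* and *Col4a6* form a second divergent pair, on chromosome X, with 1308 bases between them. *Col4a5* was at 96.0, 129 and 114 CPM with and at 59.5, 62.1 and 46.4 CPM without *Trp53* in *Pole4*-/- MEFs (-1.01 ± 0.25, adjusted p = 0.00486). *Col4a6* was at 3.07, 7.18 and 3.61 CPM against 5.44, 4.76 and 4.38 CPM, with overlap (0.08 ± 0.32, adjusted p = 0.866). The *Pole4*-/- *Trp53*+/+ libraries held 2 males and the *Pole4*-/- *Trp53*-/- libraries 1, and *Col4a5* kept its call with sex in the model. *Col4a3* and *Col4a4*, the third such pair, were at most at 1.19 and 0.928 CPM in any library.

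The FACIT genes held some of the largest falls in *Pole4*-/- MEFs, with 5 of 7 tested called lower and 0 higher (median -1.17), against 20.8% and 21.8% of all genes. *Col14a1*, which binds fibrils of type I collagen, was at 57.3, 52.2 and 60.9 CPM in *Pole4*-/- *Trp53*+/+ and at 7.26, 7.07 and 4.71 CPM in *Pole4*-/- *Trp53*-/- libraries. The log2 fold change was -3.15 ± 0.41 (adjusted p = 5.02e-05 by edgeR). In *Pole4*+/+ MEFs it was at 18.3, 10.03 and 22.6 CPM with and at 15.5, 6.75 and 7.03 CPM without *Trp53*, with overlap (-0.77 ± 0.38, adjusted p = 0.292), and at -1.33 without replicate 1. *Col12a1*, the most abundant FACIT chain, was at 2019, 1738 and 1585 CPM against 1167, 1062 and 1252 CPM in *Pole4*-/- MEFs, without overlap (-0.62 ± 0.21, adjusted p = 0.0275). *Col16a1* moved by -0.79 ± 0.25 and *Col19a1* by -1.98 ± 0.43 (adjusted p = 0.0183 and 0.00177). *Col9a2*, a chain of the cartilage type IX collagen, moved by -3.69 ± 0.90 (adjusted p = 0.00412), but stood on 3 to 5 counts in the libraries without *Trp53* and 21 to 72 in those with it. Its partners *Col9a1* and *Col9a3* did not pass (-1.17 ± 0.67 and -1.16 ± 0.49). In *Pole4*+/+ MEFs, *Col12a1* and *Col16a1* moved by 0.37 ± 0.21 and 0.17 ± 0.25 (adjusted p = 0.385 and 0.782), and by 0.07 and -0.33 without replicate 1 of *Pole4*+/+ *Trp53*-/-, where *Col16a1* changed sign. The call of *Col16a1* was lost without replicate 3 of *Pole4*-/- *Trp53*-/- or replicate 1 of *Pole4*-/- *Trp53*+/+, and that of *Col12a1* without replicate 1 or 2 of either genotype. Both calls were also lost by library totals and with no filter on low counts.

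Among the other collagens, 6 of 15 tested fell in *Pole4*-/- MEFs and 0 rose (median -1.32), against 20.8% and 21.8% of all genes. *Col10a1*, the network-forming collagen of hypertrophic cartilage, was at 15.5, 33.8 and 22.4 CPM in *Pole4*-/- *Trp53*+/+ and at 2.36, 1.83 and 1.86 CPM in *Pole4*-/- *Trp53*-/- libraries, a log2 fold change of -3.55 ± 0.25 (adjusted p = 1.45e-07 by edgeR). It fell in *Pole4*+/+ MEFs too, from 5.62, 5.89 and 5.87 CPM to 1.81, 1.40 and 1.29 CPM (-1.92 ± 0.24, adjusted p = 0.000257). No library without *Trp53* reached the lowest library with it, in either background. *Col18a1*, whose protein yields the fragment endostatin, was at 88.4, 82.5 and 121 CPM against 21.8, 32.5 and 17.1 CPM in *Pole4*-/- MEFs (-2.02 ± 0.23, adjusted p = 1.78e-05). In *Pole4*+/+ MEFs it was at 76.5, 42.7 and 64.4 CPM with and at 26.6, 22.9 and 22.8 CPM without *Trp53* (-1.34 ± 0.23, adjusted p = 0.00311). *Col10a1* and *Col18a1* kept these calls without any 1 library. In *Pole4*+/+ MEFs, *Col18a1* missed the threshold when only the libraries compared were fitted. Without replicate 1 of *Pole4*+/+ *Trp53*-/-, *Col10a1* and *Col18a1* were at -2.12 and -1.46 there.

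*Col7a1*, the anchoring fibril chain, was at 111, 94.1 and 105 CPM with and at 27.4, 38.8 and 23.6 CPM without *Trp53* in *Pole4*-/- MEFs (-1.79 ± 0.26, adjusted p = 0.000110 by edgeR). In *Pole4*+/+ MEFs it did not pass (-0.76 ± 0.25, adjusted p = 0.1005; -0.60 without replicate 1 of *Pole4*+/+ *Trp53*-/-), and its libraries did not overlap there either. *Col8a1*, a short chain made by endothelial and mesenchymal cells, was at 736, 701 and 746 CPM against 315, 352 and 333 CPM in *Pole4*-/- MEFs (-1.13 ± 0.16, adjusted p = 7.52e-05), without overlap. In *Pole4*+/+ MEFs it was at 501, 392 and 548 CPM with and at 358, 299 and 346 CPM without *Trp53* (-0.52 ± 0.16, adjusted p = 0.0695; -0.61 and 0.0263 without replicate 1 of *Pole4*+/+ *Trp53*-/-). *Col28a1* was at 6.93, 4.51 and 6.96 CPM against 0.998, 0.681 and 0.796 CPM in *Pole4*-/- MEFs (-2.88 ± 0.42, adjusted p = 0.000100). *Col8a2* was the last to pass (-1.32 ± 0.50, adjusted p = 0.0448), and its call was lost without any of 5 of the 6 libraries compared, replicate 1 of *Pole4*-/- *Trp53*-/- being the exception, and also by library totals, with no filter and with sex in the model. None of the type VI chains was called. *Col6a3* was at 366, 338 and 229 CPM with and at 469, 559 and 394 CPM without *Trp53* in *Pole4*-/- MEFs, higher in all 3 but not called (0.61 ± 0.25, adjusted p = 0.0649). With *Pole4* present it was at 425, 312 and 255 CPM against 697, 580.2 and 530.2 CPM, also higher in all 3 (0.87 ± 0.25, adjusted p = 0.0649). *Col6a1* and *Col6a2* moved by -0.44 ± 0.26 and -0.43 ± 0.28 in *Pole4*-/- and by 0.51 ± 0.26 and 0.71 ± 0.28 in *Pole4*+/+ MEFs, none past the threshold. In *Pole4*+/+ MEFs without replicate 1 of *Pole4*+/+ *Trp53*-/-, *Col6a1*, *Col6a2* and *Col6a3* were at 0.06, 0.24 and 0.72.

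**Figure D3:**
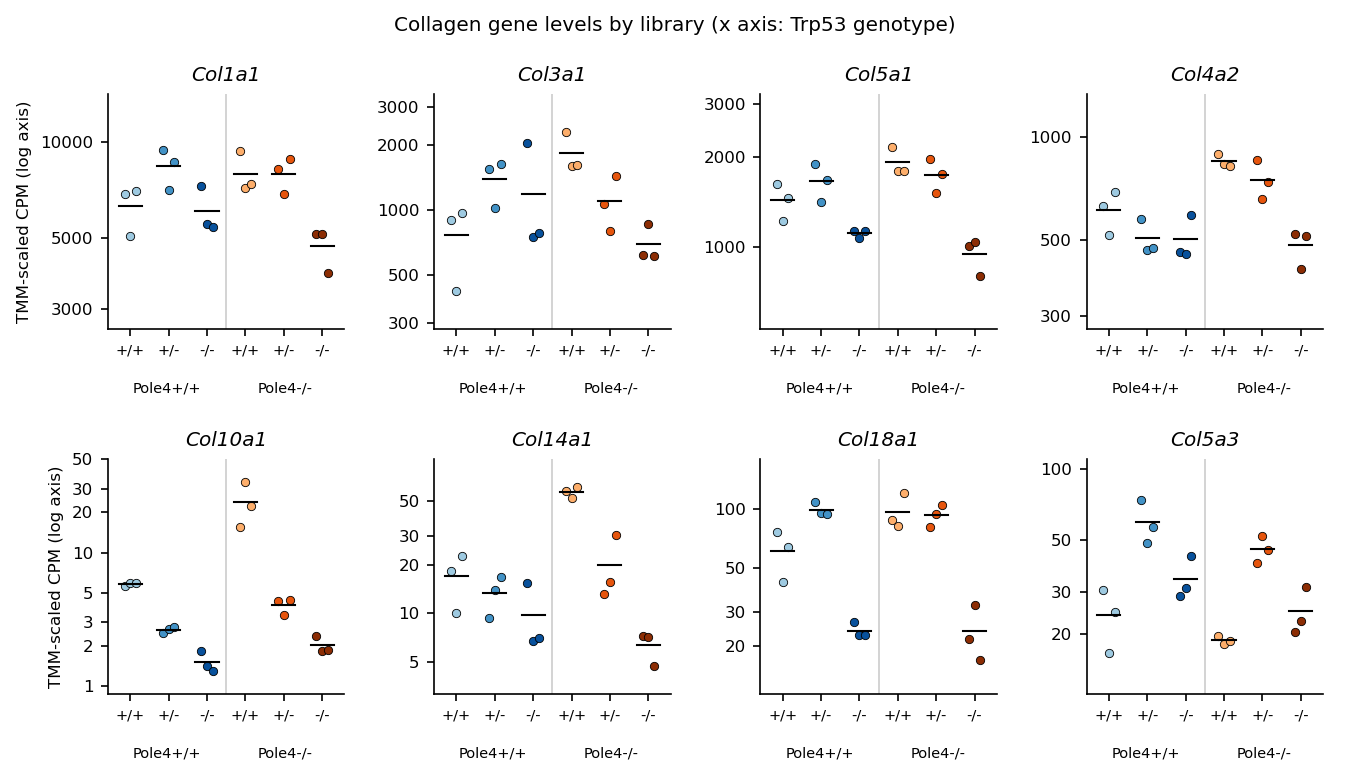
Points are single libraries, black bars the means of 3 and the vertical axes TMM-scaled CPM on a log scale, by *Trp53* genotype within each *Pole4* background. *Col10a1* steps down with each *Trp53* copy lost in both backgrounds, *Col18a1* is lowest in *Trp53*-/- MEFs, and *Col5a3* is highest in *Trp53*+/- MEFs.

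Whether the effect of *Trp53* loss differed between *Pole4* backgrounds was tested as an interaction. One collagen gene passed, *Col28a1* (-2.95 ± 0.58, adjusted p = 0.0486 by edgeR), where 0.331% of all genes did. In *Pole4*+/+ MEFs *Col28a1* was at 1.75, 0.672 and 1.19 CPM with and at 2.18, 0.621 and 0.970 CPM without *Trp53* (0.08 ± 0.40, and -0.70 without replicate 1 of *Pole4*+/+ *Trp53*-/-, with the opposite sign). With no adjustment, 28 of the 39 collagen genes had a negative interaction at p under 0.05 and 0 a positive one, against 14.5% of all genes with a negative and 13.9% with a positive one, and the collagen median was -0.96 beside -0.02. Next to *Col28a1* came *Col10a1* (-1.63 ± 0.34) and *Col9a2* (-5.76 ± 1.22), both at an adjusted p of 0.0502. *Col9a2* stood on 3 to 5 counts in *Pole4*-/- *Trp53*-/- libraries and on 1 to 108 in *Pole4*+/+ *Trp53*-/- libraries, 108 of 122 in replicate 1. Without that library the interaction of *Col9a2* was -4.18 ± 1.12 and that of *Col10a1* -1.45 ± 0.36 (adjusted p = 0.0717 and 0.0608 by edgeR). These counts moved with the method and with single libraries, and so did those over all genes. DESeq2 called 15 collagen genes, all negative, with 5.48% of all genes called negative and 5.82% positive. Without replicate 2 of *Pole4*+/+ *Trp53*-/- 16 were negative (6.1% of all genes, and 6.16% positive), and without replicate 3 of that genotype 17 (10% of all genes, and 10.1% positive). Without its replicate 1, 1 collagen gene was called negative, *Col28a1* (0.194% of all genes, and 0.871% positive), and the collagen median was -0.66. *Col28a1* lost its call in 12 of 19 alternatives, among them the fits without any of the 3 *Pole4*-/- *Trp53*-/- or 3 *Pole4*-/- *Trp53*+/+ libraries and without replicate 1 or 2 of *Pole4*+/+ *Trp53*+/+. The highest adjusted p was 0.170.

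Loss of 1 *Trp53* copy called 6 collagen genes in *Pole4*-/- and 3 in *Pole4*+/+ MEFs. In *Pole4*-/- MEFs, 5 fell (2.16% of all genes fell) and 1 rose (2.96%). *Col10a1* was at 4.36, 3.37 and 4.41 CPM in *Trp53*+/- libraries, between the ranges of *Trp53*+/+ and *Trp53*-/- libraries above (-2.55 ± 0.23 against *Trp53*+/+, adjusted p = 0.000114 by edgeR). *Col14a1* was at 13.1, 15.6 and 30.7 CPM, also between them (-1.52 ± 0.38, adjusted p = 0.0368). *Col28a1* at 2.08, 1.68 and 1.88 CPM (-1.70 ± 0.39, adjusted p = 0.0283) lay between the outer genotypes as well. *Col8a1* (-0.81 ± 0.16) and *Col19a1* (-1.79 ± 0.41) also fell, at adjusted p of 0.0174 and 0.0294. The gene that rose was *Col5a3*, the minor type V chain, at 39.9, 52.2 and 45.4 CPM in *Trp53*+/- against 19.6, 18.03 and 18.6 CPM in *Trp53*+/+ libraries (1.29 ± 0.23, adjusted p = 0.0113). *Col1a1* did not pass, at 8225, 6854 and 8820.1 CPM in *Trp53*+/- MEFs (0.00 ± 0.18), nor did *Col18a1*, at 80.7 to 105 CPM (-0.06 ± 0.22). The 6 calls became 1 to 4 when any 1 library was left out. Only *Col10a1* was called without replicate 2 of *Pole4*-/- *Trp53*+/- or replicate 2 or 3 of *Pole4*-/- *Trp53*+/+. Over all genes, those fits called 17, 41 and 33, and the other such fits 241 to 553, against 805 with all libraries. With sex in the model 4 were called, without *Col14a1* and *Col28a1*, and 177 over all genes. By library totals, *Col8a1* was at -0.49 and *Col14a1* at -1.19, and both lost their calls (adjusted p = 0.177 and 0.0862 by edgeR). With no filter on low counts *Col14a1* lost its call. Summed markers that did not overlap here were epithelial (23.2 to 31.7 CPM in *Trp53*+/- against 10.5 to 16.7 in *Trp53*+/+ libraries) and Schwann and neural (50.8 to 73.7 against 41.9 to 48.3). Most single Schwann and neural markers went against their sum: of 5 tested, 4 had a negative log2 fold change and 1 a positive one (median -0.99). The 3 epithelial markers tested were all positive. Of 55 markers tested, 1 fell, *Hapln1*, and 1 rose, *Twist2*. Their part in the collagen result was not tested.

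In *Pole4*+/+ MEFs, where *Trp53*+/- libraries were male and *Trp53*+/+ libraries female, 2 collagen genes fell (0.407% of all genes) and 1 rose (0.496%). *Col10a1* was at 2.49, 2.66 and 2.75 CPM in *Trp53*+/- libraries, below the *Trp53*+/+ and above the *Trp53*-/- libraries (-1.14 ± 0.23 against *Trp53*+/+, adjusted p = 0.0301 by edgeR). *Col19a1*, a FACIT chain of low level, was at 0.265, 0.532 and 0.355 CPM against 2.60, 2.12 and 1.78 CPM (-2.55 ± 0.48, adjusted p = 0.0192). *Col5a3* was at 73.7, 48.7 and 56.9 CPM against 30.8, 16.6 and 24.8 CPM (1.31 ± 0.22, adjusted p = 0.0121). It was also above the *Trp53*-/- libraries, which held 28.8, 31.2 and 42.8 CPM. Type VI chains were higher without passing: *Col6a3* by 0.97 ± 0.25, *Col6a2* by 1.00 ± 0.28 and *Col6a1* by 0.78 ± 0.26 (adjusted p = 0.0916, 0.123 and 0.210). Leaving out any 1 library left 0 to 2 calls, with 0 without replicate 1 of *Pole4*+/+ *Trp53*+/- or replicate 2 of *Pole4*+/+ *Trp53*+/+, and *Col10a1* lost its call in each such fit. Over all genes, these fits called 17 to 101, against 142 with all libraries, and 19 and 17 where no collagen gene was called. *Col10a1* also lost it by library totals and by voom, and *Col5a3* with only the libraries compared. Summed markers of 5 lists did not overlap here. Chondrocyte markers were at 60.8 to 68.0 CPM in *Trp53*+/- against 33.2 to 49.8 in *Trp53*+/+ libraries, osteoblast markers at 469 to 657 against 229 to 448, and Schwann and neural markers at 52.9 to 69.6 against 42.1 to 49.6, all higher. Skeletal muscle markers were lower, at 21.8 to 30.1 against 44.1 to 74.0 CPM, as were epithelial markers, at 12.005 to 17.5 against 20.8 to 34.4. Of the 55 markers tested, edgeR called 0, and unadjusted p under 0.05 was reached by 3 lower and 6 higher (5.05% and 5.19% of all genes). Their part in the collagen result was not tested.

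Loss of *Pole4* alone raised 4 collagen genes. In *Trp53*+/+ MEFs, these 4 rose and 0 fell, against 1.29% of all genes that rose and 2.7% that fell, and the collagen median was 0.60 beside 0.01. This comparison shares the *Pole4*-/- *Trp53*+/+ libraries with the loss of *Trp53* in *Pole4*-/- MEFs, and high values there enter both with opposite sign. *Col10a1* rose by 2.04 ± 0.23 (adjusted p = 0.00197 by edgeR), *Col28a1* by 2.32 ± 0.40 (0.0165), *Col14a1* by 1.74 ± 0.38 (0.0278) and *Col8a1* by 0.60 ± 0.16 (0.0455), each without overlap in the library values given above. By library totals *Col8a1* was at 0.29 and lost its call (adjusted p = 0.444 by edgeR), while the other 3 kept theirs. With no filter on low counts, *Col8a1* and *Col14a1* lost theirs. With no adjustment 19 were higher and 0 lower at p under 0.05 (11.3% of all genes were higher and 14.8% lower), among them *Col3a1* (1.27 ± 0.39), *Col11a1* (1.01 ± 0.40) and *Col4a2* (0.47 ± 0.14). DESeq2 called 14, all higher (3.77% of all genes were higher and 6.52% lower), and the fit with sex in the model called 1, *Col10a1*, where it called 8 genes of all those tested. Leaving out 1 library gave 1 to 5 calls: 1 (*Col10a1*) without replicate 3 of *Pole4*-/- *Trp53*+/+ or replicate 2 of *Pole4*+/+ *Trp53*+/+, and 2 without replicate 1 or 2 of *Pole4*-/- *Trp53*+/+ or replicate 1 of *Pole4*+/+ *Trp53*+/+. Over all genes, these fits called 12, 8, 140, 18 and 26 in that order, against 626 with all libraries. The fit with 5 collagen calls, without replicate 3 of *Pole4*+/+ *Trp53*+/+, called 799. In *Trp53*+/- and *Trp53*-/- MEFs, loss of *Pole4* called 0 collagen genes by edgeR (0.00637% of all genes in each), with collagen medians of 0.06 and -0.36. The latter was -0.10 without replicate 1 of *Pole4*+/+ *Trp53*-/-. Unadjusted p under 0.05 was reached by 6 higher and 4 lower collagen genes in *Trp53*+/- MEFs (2.75% and 2.76% of all genes), and by 1 higher and 11 lower in *Trp53*-/- MEFs (3.47% and 6.94% of all genes). DESeq2 called 1 in *Trp53*+/- MEFs, *Col4a2*, and 0 in *Trp53*-/- MEFs, where it called 43 and 29 of all 15710 genes. With loss of *Pole4* in *Trp53*+/+ MEFs, summed osteoblast markers were higher, at 560 to 1100 CPM against 229 to 448, and epithelial markers lower, at 10.5 to 16.7 against 20.8 to 34.4 CPM, without overlap. Single osteoblast markers did not rise as a list: of 5 tested, 2 had a positive log2 fold change and 3 a negative one (median -0.27). The 3 epithelial markers tested were all negative. The other 7 marker lists overlapped, and of 55 markers tested 1 fell, *Twist2*, and 0 rose. Their part in the collagen result was not tested.

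All collagen genes together took 3.33%, 2.80% and 2.76% of counts other than ribosomal RNA in *Pole4*-/- *Trp53*+/+ libraries and 1.74%, 1.81% and 1.48% in *Pole4*-/- *Trp53*-/- libraries. The means were 2.96% ± 0.317 and 1.68% ± 0.171 (SD, n = 3), and the groups did not overlap (exact two-sided permutation test, p = 0.1, the smallest that 3 against 3 libraries can give). In *Pole4*+/+ MEFs the share was 2.34%, 1.73% and 2.49% with *Trp53* and 2.88%, 1.78% and 1.94% without it, with overlap and means of 2.19% ± 0.4002 and 2.20% ± 0.593 (exact permutation test, p = 1). The 2.88% was replicate 1, and without it the difference was -0.33 percentage points. *Trp53*+/- libraries held 2.17% to 2.95% in *Pole4*-/- and 2.20% to 3.05% in *Pole4*+/+ MEFs. *Col1a1*, *Col1a2* and *Col3a1* made up 54.0% to 63.5% of collagen counts in every library.

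Ratios of chains that assemble with each other were compared next. *Col1a1* exceeded *Col1a2* by 0.73 ± 0.01 on the log2 scale in *Pole4*-/- *Trp53*-/- (SD, n = 3) and by a mean of 0.73 in *Pole4*-/- *Trp53*+/+ libraries, with all 18 libraries between 0.64 and 0.86. *Col4a1* exceeded *Col4a2* by 0.64 to 0.68 in *Pole4*-/- *Trp53*-/- and by 0.41 to 0.48 in *Pole4*-/- *Trp53*+/+ libraries, without overlap. The difference was 0.22 (exact permutation test, p = 0.1, adjusted p = 0.318 over the 35 relations tested, none of which can pass). In *Pole4*+/+ MEFs this ratio overlapped, at 0.34, 0.67 and 0.62 without and at 0.56, 0.60 and 0.58 with *Trp53*, a difference of -0.03. The 0.34 was replicate 1, the library that stood apart, while 0.67 and 0.62 lay above every library with *Trp53*. *Col8a1* and *Col8a2* varied most: their log2 ratio ran from 5.48 to 5.73 in *Pole4*+/+ *Trp53*+/+ and from 3.13 to 5.36 in *Pole4*+/+ *Trp53*-/- libraries, 3.13 being replicate 1. In *Pole4*-/- MEFs it overlapped between *Trp53*-/- and *Trp53*+/+ libraries, with a difference of the opposite sign (0.28, against -1.28 in *Pole4*+/+). The -1.28 includes replicate 1 of *Pole4*+/+ *Trp53*-/-, and replicates 2 and 3 were nearer to the libraries with *Trp53*, at 4.55 and 5.36. *Col6a1* to *Col6a2* lay at 0.48 to 0.53 in *Pole4*+/+ *Trp53*-/- and at 0.58 to 0.80 in *Pole4*+/+ *Trp53*+/+ libraries, without overlap. In *Pole4*-/- MEFs it overlapped, at 0.51 to 0.69 without and at 0.57 to 0.58 with *Trp53*. The ratio of *Col5a1* to *Col5a2* overlapped in both comparisons of *Trp53* loss.

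**Figure D4:**
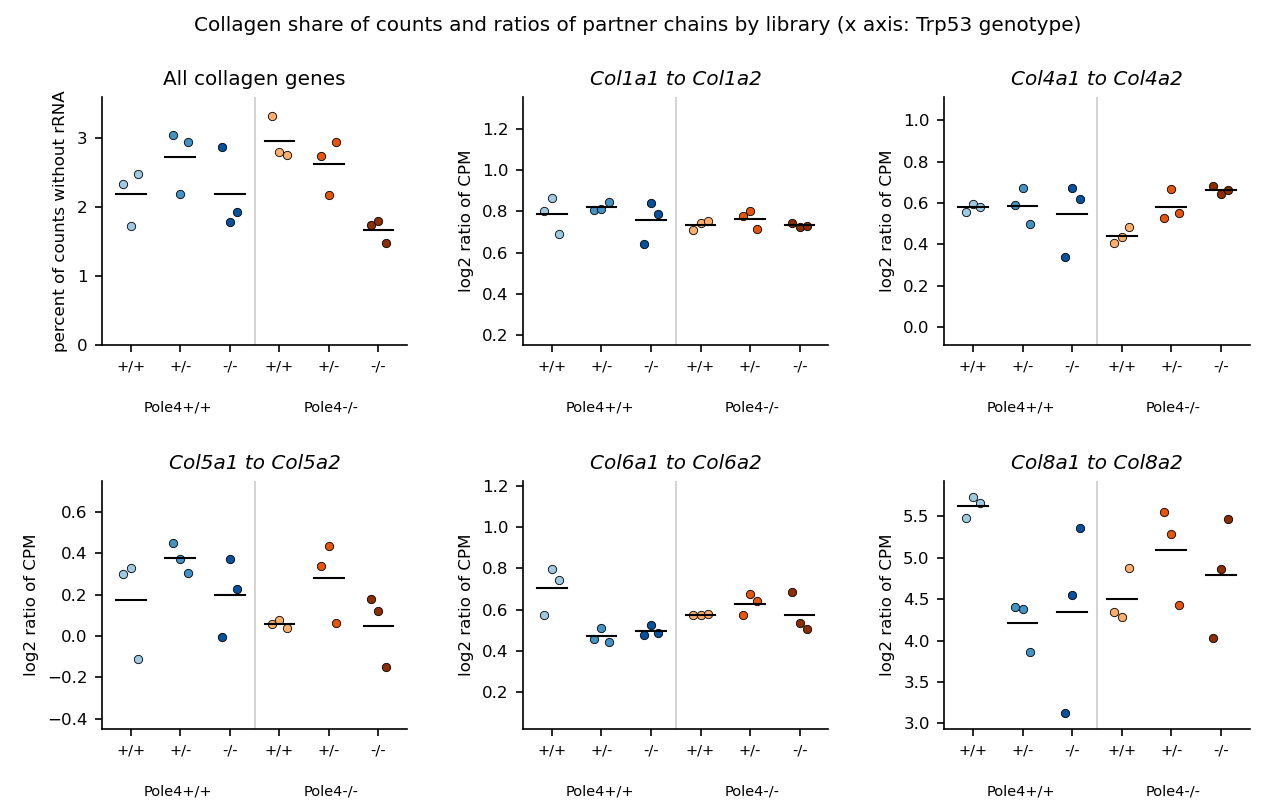
The first panel gives the percent of counts other than ribosomal RNA that fell on collagen genes, and the others the log2 ratio of CPM of 2 partner chains, with 1 point per library and bars for the means of 3. The collagen share of the *Pole4*-/- *Trp53*-/- libraries lies at 1.48% to 1.81%, below the 2.76% to 3.33% of *Pole4*-/- *Trp53*+/+, while *Col1a1* to *Col1a2* stays between 0.64 and 0.86 in all libraries.

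Genes that modify, fold, cut, join and bind collagen were read beside the chains. Of 14 tested genes for prolyl and lysyl hydroxylation and their partners, 13 fell with loss of *Trp53* in *Pole4*-/- MEFs and 0 rose, the exception being *Ppib*, a prolyl isomerase. Their median of -0.62 stands beside -0.02 over all genes, and 20.8% of all genes fell. *Plod2*, the lysyl hydroxylase of the collagen telopeptides, was at 288, 319 and 359 CPM with and at 137, 128 and 108 CPM without *Trp53* (-1.37 ± 0.17, adjusted p = 3.09e-05 by edgeR). *P3h4* (-0.62 ± 0.09) and *Colgalt1* (-0.44 ± 0.07), a collagen galactosyltransferase, followed by p. In *Pole4*+/+ MEFs 1 fell (2.37% of all genes did), *Plod2*, from 211, 168 and 276 CPM to 133, 141 and 111 CPM (-0.77 ± 0.17, adjusted p = 0.0171; -0.82 without replicate 1 of *Pole4*+/+ *Trp53*-/-). In *Pole4*-/- *Trp53*+/- MEFs 2 fell (2.16% of all genes did), *Plod2* (-0.74 ± 0.17) and *P3h4* (-0.40 ± 0.09).

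Of 17 genes for chaperones and export, 8 fell in *Pole4*-/- MEFs, led by *Creb3l2* (-0.55 ± 0.10), *Fkbp10* (-0.49 ± 0.09) and *Fkbp14* (-1.45 ± 0.29), and 0 rose, where 20.8% of all genes fell and 21.8% rose. In *Pole4*+/+ MEFs 1 fell (2.37% of all genes did), *Pdia3* (-0.36 ± 0.09, and -0.39 without replicate 1 of *Pole4*+/+ *Trp53*-/-), a disulfide isomerase. Of 7 tested propeptide proteases and their enhancers, 4 fell in *Pole4*-/- MEFs (20.8% of all genes did), led by *Bmp1* (-0.85 ± 0.14), which trims the C-propeptides of fibrillar chains, and 0 in *Pole4*+/+ MEFs, where edgeR gave an unadjusted p under 0.05 to 1 lower and 1 higher (8.26% and 10.7% of all genes). Of 6 crosslinking genes, 4 fell in *Pole4*-/- MEFs, against the same 20.8%. *Lox*, the main lysyl oxidase, was at 3896, 3319 and 3339 CPM with and at 1247, 1289 and 1009.6 CPM without *Trp53* (-1.57 ± 0.21, adjusted p = 5.45e-05 by edgeR), and did not pass in *Pole4*+/+ MEFs (-0.64 ± 0.21, adjusted p = 0.0926). *Loxl4* fell in both, by -1.14 ± 0.18 and -0.88 ± 0.18. In *Pole4*+/+ MEFs without replicate 1 of *Pole4*+/+ *Trp53*-/-, *Lox* passed at -0.89 (adjusted p = 0.00959) and *Loxl4* was at -1.16.

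Of 9 tested collagen receptors, 7 fell in *Pole4*-/- MEFs and 0 rose (20.8% and 21.8% of all genes), led by the integrin chains *Itga1* (-1.81 ± 0.26), *Itga11* (-2.05 ± 0.33) and *Itga10* (-2.04 ± 0.41). *Itga11* was at 549.7, 377 and 341 CPM against 124, 130.4 and 52.1 CPM, without overlap. In *Pole4*+/+ MEFs 2 fell (2.37% of all genes did), *Itgb1* (-0.58 ± 0.13) and *Itga11* (-1.21 ± 0.32), at -0.51 and -1.44 without replicate 1 of *Pole4*+/+ *Trp53*-/-. Of 16 tested fibril-associated proteins, 10 fell in *Pole4*-/- MEFs and 0 rose, beside the same shares of all genes, led by *Sparc* (-0.86 ± 0.12), *Fn1* (-1.19 ± 0.18), which encodes fibronectin, and *Bgn* (-0.89 ± 0.15), which encodes biglycan. In *Pole4*+/+ MEFs 1 fell, against 2.37% of all genes, *Thbs1* (-1.09 ± 0.27, and -0.88 without that library). With loss of *Pole4* in *Trp53*+/+ MEFs, *Itga10* (1.93 ± 0.41), *Itga1* (1.03 ± 0.25) and *Fn1* (0.70 ± 0.18) rose.

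**Figure D5:**
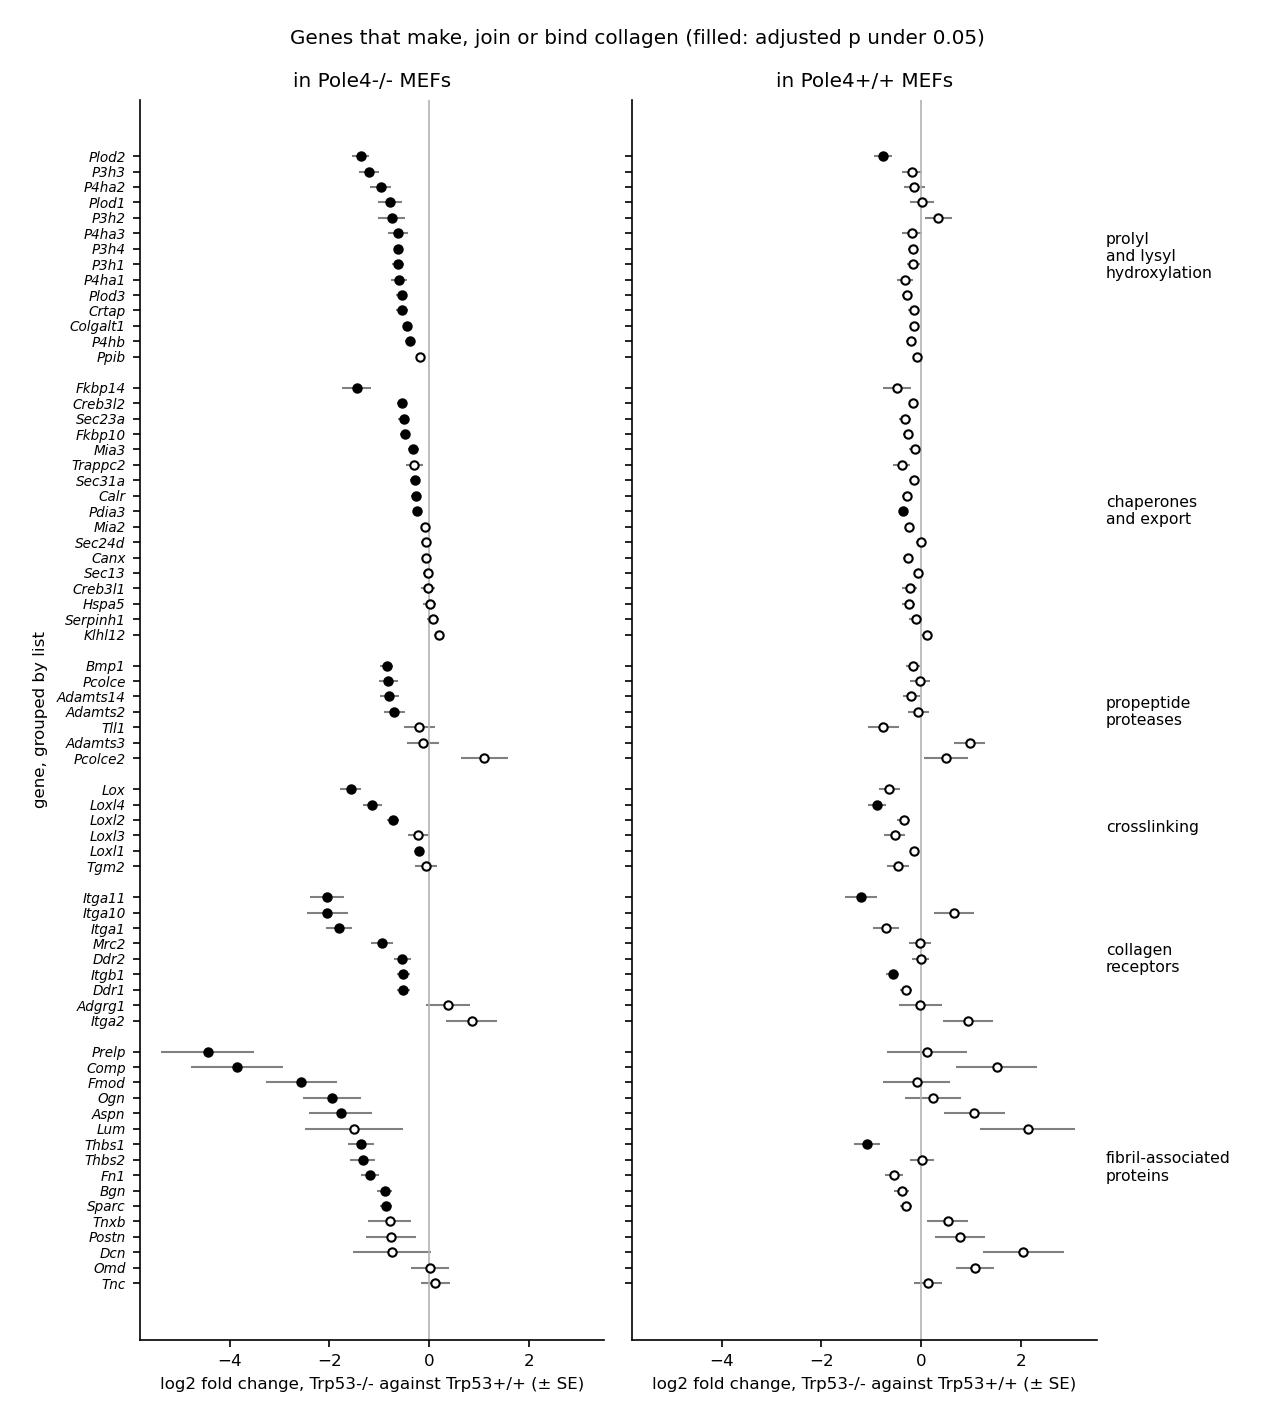
Points are log2 fold changes of *Trp53*-/- against *Trp53*+/+ MEFs with their SE for genes that modify, fold, export, cut, join or bind collagen, in *Pole4*-/- (left) and *Pole4*+/+ MEFs (right). Filled points have an adjusted p under 0.05; on the left they include 13 of 14 genes for hydroxylation, all below 0.

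Marker lists were read beside the collagen genes for loss of *Trp53* in *Pole4*-/- MEFs, where 20.8% of all genes fell and 21.8% rose. Summed fibroblast markers lay at 5247 to 5464 CPM in *Pole4*-/- *Trp53*-/- and at 5233 to 6468 CPM in *Pole4*-/- *Trp53*+/+ libraries, with overlap; 2 of 10 fell and 3 rose, *Pdgfra* among them. Summed chondrocyte markers overlapped as well, at 48.1 to 71.4 and 43.8 to 52.3 CPM, with 2 of 6 tested lower. Osteoblast markers summed to 292 to 353 CPM in *Pole4*-/- *Trp53*-/- and to 560 to 1100 CPM in *Pole4*-/- *Trp53*+/+ libraries. Of these 8 genes, *Spp1* gave nearly all of the level, 226 to 287 CPM against 526 to 1061 CPM, while the defining markers *Bglap* and *Ibsp* were at most at 0.0749 and 0.0663 CPM in these libraries. Of 5 osteoblast markers tested, *Spp1* fell and *Runx2* rose. Epithelial markers were higher, at 22.3 to 42.2 against 10.5 to 16.7 CPM, and 2 of 3 tested rose, *Krt8* and *Krt18*. Schwann and neural markers were also higher, at 52.7 to 75.6 against 41.9 to 48.3 CPM, with 2 of 5 tested lower and 2 higher. Skeletal muscle markers were lower, at 27.5 to 36.6 against 52.1 to 71.7 CPM, with 1 of 8 tested lower and 1 higher. Smooth muscle markers (4992 to 5758 against 4869 to 5072 CPM), macrophage markers (6.44 to 33.2 against 9.70 to 23.8) and endothelial markers (5.39 to 8.88 against 4.94 to 6.26) overlapped, and edgeR called 0 of their 6, 8 and 4 tested genes (unadjusted p under 0.05 for 3 endothelial genes, 2 lower and 1 higher, and for 0 of the others, beside 24.9% lower and 25.1% higher of all genes). With loss of *Trp53* in *Pole4*+/+ MEFs, summed chondrocyte markers (56.5 to 60.9 against 33.2 to 49.8 CPM) and Schwann and neural markers (57.9 to 73.8 against 42.1 to 49.6) were higher. Summed skeletal muscle markers (25.3 to 31.3 against 44.1 to 74.0) were lower, all 3 without overlap. Single skeletal muscle markers mostly went against their sum: of 8 tested, 7 had a positive log2 fold change and 1 a negative one (median 1.29). Positive changes were found for 6 of 6 chondrocyte and 3 of 5 Schwann and neural markers tested. Of the 55 markers tested there, *Pdgfra* and *Prrx1* rose and *Des* fell, where 2.23% of all genes rose and 2.37% fell. The part of these cell types in the collagen result was not tested.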

How the data were processed

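RNA-seq of 18 MEF libraries, 3 for each of 6 genotypes, was analysed from 1 table of expected counts per gene. Per the labels and methods of the study, the authors made these deposited expected counts with Trim Galore, STAR 2.5.2 and RSEM 1.3.0, so that reads shared by near-identical genes are split by estimate. RNA was amplified with the Ovation RNA-Seq V2 kit. The strand setting of the counting and the position of the deletions were not given in the sources used here. Expected counts were rounded (6.14% of values were not whole) and all genes were fitted together over 18 libraries with edgeR 4.0.16 in R 4.3.3 (TMM scaling, filterByExpr, quasi-likelihood test, Benjamini-Hochberg adjusted p over 15710 genes, threshold 0.05), with an interaction for *Pole4* and *Trp53*. SE belong to log2 fold changes. Shares and chain ratios were compared by exact two-sided permutation tests. The submitters' processing notes list DESeq2 1.10.1, which was not run here. Alternatives were DESeq2 1.42.0, voom with quality weights (limma 3.58.1), library totals, no filter, sex, a replicate block, only the libraries compared, and leaving out each library. Named by rule were the collagen genes called, the 2 most abundant of each class, partner chains, X-linked members and, from each other list, up to 3 called genes with the smallest p. Other collagen genes were named after their values were seen. The members and lists were chosen with earlier results of these data known. Levels per kb used the principal transcript of each gene. The scripts were tested on simulated data. Libraries held 9535971 to 35319918 counts, and genes on few counts are the least precise.

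Same-numbered libraries of different genotypes were checked for shared deviations from their genotype means. Correlations ran from -0.26 to 0.59, and all 3 pairs were over 0.1 for the comparison of *Pole4*-/- with *Pole4*+/+ in *Trp53*+/- MEFs (0.261, 0.497 and 0.292), where the replicate block called 0 collagen genes, as did the fit without it. All 3 were over 0.1 also between *Pole4*+/+ *Trp53*+/- and *Pole4*+/+ *Trp53*-/- (0.250, 0.586 and 0.144) and between *Pole4*-/- *Trp53*+/- and *Pole4*+/+ *Trp53*+/+ MEFs (0.146, 0.383 and 0.333), which were not compared here.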

Additional observations from a re-analysis of the deposited data

Results flagged for a closer look

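The effect of *Trp53* loss on *Col28a1* differed between *Pole4* backgrounds by -2.95 ± 0.58 on the log2 scale (edgeR interaction term, adjusted p = 0.0486), lower in *Pole4*-/- than in *Pole4*+/+ MEFs. Over 19 alternatives the value ran from -3.35 to -1.87 and the adjusted p from 0.000693 to 0.170, with the call lost in 12. *Col28a1* stood on 12 to 22 counts in each *Pole4*-/- *Trp53*-/- library.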

How the results depend on the processing

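Brackets after counts of calls give the calls over all genes tested, which numbered 15710 in the main fit and 29684 with no filter. Loss of *Trp53* in *Pole4*-/- MEFs called 17 to 28 collagen genes over all alternatives (3722 to 8126, and 6699 in the main fit). With any 1 library left out it called 18 to 22 (5108 to 6007). In *Pole4*+/+ MEFs the 2 calls (723) became 4 with a replicate block (795) and 1 with only the libraries compared (90). They became 8 by voom (2946), 7 by DESeq2 (1305), and 2 to 4 with 1 library left out (325 to 2700). For loss of 1 copy in *Pole4*-/- MEFs, 6 calls (805) became 11 by voom (3862) and 1 to 4 with 1 library left out (17 to 553). In *Pole4*+/+ MEFs 3 (142) became 6 with a replicate block (190), 9 by voom (1117) and 7 by DESeq2 (402). With 1 library left out they were 0 to 2 (17 to 101). Of the 9 by voom, 2 were lower and 7 higher. For loss of *Pole4* in *Trp53*+/+ MEFs, 4 (626) became 2 with no filter (824), 11 with a replicate block (896) and 1 with sex (8). They became 16 with only the libraries compared (3358 of 13920), 23 by voom (5229) and 14 by DESeq2 (1618). With 1 library left out they were 1 to 5 (8 to 799). In *Trp53*+/- MEFs 0 (1) became 2 by voom (246) and 1 by DESeq2 (43). The interaction count of 1 (52) became 0 by library totals, with sex and with only the libraries compared (0 in each). It became 3 with no filter (339), 9 with a replicate block (548), 2 by voom (1234) and 15 by DESeq2 (1775). With 1 library left out it ran from 0 to 17 (0 to 3242). In the comparisons made other than *Pole4* loss in *Trp53*+/- MEFs, not every pair of same-numbered libraries correlated over 0.1. Without *Col1a1*, *Col1a2* and *Col3a1*, the difference in collagen share with loss of *Trp53* was -0.562 percentage points in *Pole4*-/- (-1.28 with them) and -0.049 in *Pole4*+/+ MEFs (0.01 with them). With 1 library left out, it ran from -0.33 to 0.22 in *Pole4*+/+ MEFs. The cause of these changes was not tested. By library totals, the median of all genes moved to 0.29 for loss of 1 *Trp53* copy in *Pole4*-/- MEFs (collagen -0.26) and to -0.28 for loss of *Pole4* in *Trp53*+/+ MEFs (collagen 0.29). It moved to -0.44 for loss of *Pole4* in *Trp53*-/- MEFs (collagen -0.80), to -0.15 for the interaction (collagen -1.12) and to 0.12 for loss of *Trp53* in *Pole4*+/+ MEFs (collagen 0.48). Depth limits the genes on few counts.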
